A study of Rattus norvegicus with 15 samples.

Results

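The transcriptome of rat hearts taken 24 h after the start of severe acute pancreatitis (SAP) was compared with that of hearts from sham-operated rats, gene by gene over all named genes of the array. The 24 h hearts and the sham hearts were found by their sample labels and numbered 5 and 5, so 10 of the 15 arrays of the series entered the comparison, and the remaining 5, from hearts at 12 h, served for the estimate of the spread and for the test of 24 h against 12 h. All animals were male Sprague-Dawley rats of 8 to 10 weeks with no genetic change stated. In the SAP groups 5% sodium taurocholate, a bile salt that injures the pancreas, was infused backwards into the pancreatic and biliary ducts, and the control rats had sham surgery. Some fields of the labels speak of ischemia/reperfusion, of mice or of a mouse array. The fields given for each sample name rat, heart and either SAP or sham surgery, the probe sets are those of a rat array, and these were followed. No source used here states the hour of day, the food intake or when sham hearts were collected, so each of these cannot be told apart from SAP. The labels call each array a separate sample and do not say how the replicates were housed or processed, so p-values measure the spread between these samples.

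Heart muscle makes its ATP mainly by burning fatty acids in mitochondria, with glucose, lactate and ketones as further fuels. Fatty acids released from stored triglyceride by lipases activate the nuclear receptor PPAR alpha, which raises the genes of fatty acid use, while insulin signalling through the AKT kinases favours glucose uptake through the transporter GLUT4. In severe acute pancreatitis the inflamed pancreas releases enzymes and cytokines, animals commonly stop eating, and injury of distant organs, the heart among them, is a known feature of the disease.

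The level of a gene is given on the log2 scale of the deposited values, in the order of replicates 1 to 5, and a difference is the mean at 24 h minus the mean in sham hearts on that scale, with limma's standard error (SE). A gene was called when its p-value, adjusted over all 23188 probe sets, was under 0.05, and "rose" and "fell" are used of called genes alone. Folds hold if the deposited values are plain log2. A gene with a mean under 6 log2 in both groups is called near background, as were 6917 of the 15037 named genes. Array medians lay between 5.9 and 5.98 log2, and the median within-group standard deviation of a probe set was 0.210 log2 in the sham and 0.212 log2 in the 24 h hearts.

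The tissue label was borne out by the cardiac muscle genes. Myl3, the ventricular light chain, was at 19.57, 19.62, 19.02, 19.53 and 19.55 log2 in the sham hearts and at 19.58, 19.29, 19.61, 19.57 and 19.63 log2 at 24 h. Among the 8 genes of cardiac muscle identity 0 were called by limma, 1 with an unadjusted p under 0.05, and their summed level was 21.35 to 21.81 log2 in sham and 21.45 to 21.70 log2 at 24 h. Of 14 pancreatic acinar genes 13 were near background, as were 13 of 14 hepatocyte genes and 12 of 14 skeletal muscle genes. Ctrb1, a pancreatic protease, was called higher near background, and Casq1, of skeletal muscle, was called lower. The atrial transcripts set 2 sham arrays apart, and their mean was lower in every 24 h heart than in any sham heart. Myl7, the atrial myosin light chain, was at 13.08, 19.02, 17.47, 13.54 and 13.90 log2 in the sham hearts and at 6.55, 5.75, 7.03, 6.71 and 11.30 log2 at 24 h. Sham replicates 2 and 3 were the highest and every 24 h array was below every sham array. Myl4, the other atrial light chain, was at 7.59, 14.96, 13.49, 4.66 and 8.49 log2 in the sham hearts and at 4.77, 5.16, 4.55, 5.16 and 4.41 log2 at 24 h, and stood far higher in sham replicates 2 and 3 than in any other of the 10 hearts. The same held for Sln, which encodes the calcium pump inhibitor sarcolipin, at 8.12, 15.98, 13.46, 6.70 and 8.28 log2 in the sham hearts and at 4.29, 5.17, 4.62, 4.99 and 6.11 log2 at 24 h. These 2 sham arrays, with 2 arrays of the 12 h group, are called atrium-rich here. The summed level of the 12 atrial markers was 16.97 to 20.43 log2 in the sham hearts and 16.63 to 17.84 log2 at 24 h, with Adm, Bmp10 and Bmp2 near background. The mean over the 12 did not overlap, at 8.364 to 11.881 log2 in sham and 7.598 to 8.113 log2 at 24 h. How much atrium each heart sample held is not given, and its part in the results was not tested beyond 2 other fits, one with the mean of 6 atrial markers as a covariate and one without the atrium-rich arrays. The mean of these 6 was 8.20 to 15.08 log2 in sham and 6.79 to 7.66 log2 at 24 h, so the covariate moved with the group. Sham replicates 1, 4 and 5 were also above every 24 h heart. Neither of the 2 fits can therefore tell atrial content apart from group. In these fits 424 and 421 of the 782 calls remained, and all 782 kept their sign in both. Of the 150 called genes named here with a value 93 were called in both of these fits, and 88 were called whichever of the 10 arrays was left out. The call was lost without 1 array for Myl7 (in 8 of 10 fits, adjusted p up to 0.0927 without 24 h replicate 2).

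Of 15037 named genes 570 were called (3.79%), 198 higher (1.32%) and 372 lower (2.47%). The 5 arrays of each group did not overlap for 1002 genes (6.66%), and 491 of these were also called. Over all 23188 probe sets 782 were called (3.37%), with 286 higher (1.23%), 496 lower (2.14%) and 1390 without overlap (5.99%). At least a 2-fold change was seen in 142 of the called genes, 59 higher and 83 lower. The median difference over all named genes was 0.014 log2 and the median SE was 0.151 log2. Of 8120 named genes at 6 log2 or more in either group 542 were called (6.67%). The list counts below are to be read beside these shares, and a count near them is no result about its list. Against 12 h the same fit called 160 probe sets (0.69%), and 18 of the 570 genes called against sham were among those that also differed between 24 h and 12 h.

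**Figure D1:**
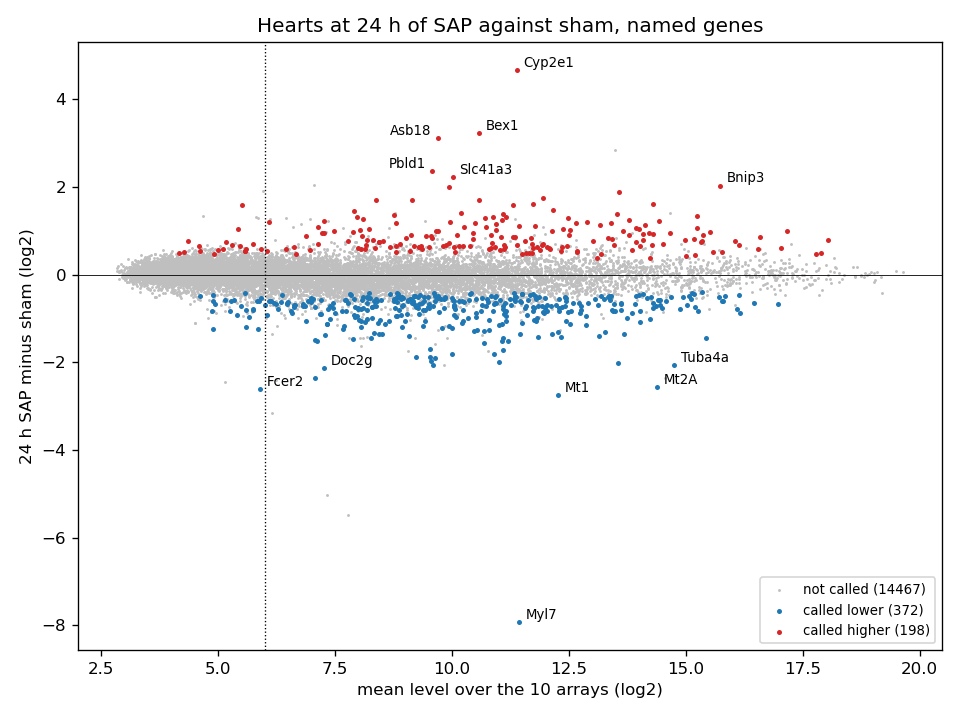
Difference between 24 h and sham (vertical axis, log2) against the mean level over the 10 arrays (horizontal axis, log2) for 15037 named genes; grey points are not called, red points called higher (198) and blue points called lower (372), and the dotted line marks 6 log2. Genes with the largest differences without overlap are labelled, from Cyp2e1 at the top (4.67 log2) to Myl7 at the bottom (-7.93 log2).

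Enzymes that handle small organic compounds gave some of the largest rises. The cytochrome P450 Cyp2e1, which oxidises ethanol, acetone and other small molecules, was at 9.41, 9.09, 8.48, 10.01 and 8.31 log2 in the sham hearts and at 12.52, 14.75, 13.24, 14.39 and 13.74 log2 at 24 h. The lowest 24 h array was above the highest sham array, and the rise was 25.4-fold (difference 4.67 ± 0.45 SE, adjusted p = 2.46e-05). Gstt2, a theta class glutathione transferase, was at 9.23, 9.08, 8.66, 8.88 and 8.82 log2 in the sham hearts and at 10.48, 11.13, 11.08, 10.80 and 11.18 log2 at 24 h, again without overlap. It rose 4-fold (adjusted p = 7.72e-05). Of 31 measured cytochrome P450 and glutathione or sulfo transferase genes 7 were called higher and 0 lower, with a median difference of 0.188 log2 against 0.014 over all genes. The others named were Mgst1, the microsomal glutathione transferase (difference 1.60 ± 0.22 SE), the sulfotransferase Sult1a1 (1.37 ± 0.20 SE), Cyp4b1 (1.08 ± 0.22 SE) and Gstm1 (0.62 ± 0.16 SE). Mgst1 stood lower than at 12 h, with a difference of -1.05 log2 between 24 h and 12 h (adjusted p = 0.0286). The carbonyl reductase Cbr1 rose too, by 1.62 ± 0.30 SE log2. The counts of the list were 5 higher and 0 lower with the atrial covariate, and 5 higher and 0 lower without the atrium-rich arrays. Leaving out 1 array could end the call of Gstm1 (in 8 of 10 fits, adjusted p up to 0.0982 without 24 h replicate 5). Lost in 1 or both atrial fits was Gstm1.

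Of 30 antioxidant genes 4 were called higher and 0 lower, beside 1.32% called higher of all named genes. The median difference of the list was small, at 0.080 log2. Cat, which encodes catalase and breaks down hydrogen peroxide, was at 16.07, 16.30, 15.93, 16.57 and 15.94 log2 in the sham hearts and at 16.97, 17.06, 16.92, 17 and 17.20 log2 at 24 h. The groups did not overlap and the difference was 0.87 ± 0.14 SE (adjusted p = 0.00141). Txnip, the inhibitor of thioredoxin and of glucose uptake, rose by 0.78 ± 0.14 SE, the malic enzyme Me1 by 0.66 ± 0.15 SE and the autophagy receptor Sqstm1 by 1.24 ± 0.30 SE. Of 23 genes of iron handling 2 rose and 1 fell. Slc40a1, the iron exporter ferroportin, was at 10.85, 10.14, 10.43, 10.51 and 10.30 log2 in the sham hearts and at 12.08, 11.72, 11.01, 10.99 and 11.51 log2 at 24 h. It rose by 1.02 ± 0.21 SE (adjusted p = 0.011), with no overlap. Ftl1, the ferritin light chain that stores iron, rose by 0.82 ± 0.18 SE. Tfrc, the transferrin receptor that takes iron up, was at 8.62, 8.53, 10.13, 8.79 and 9.65 log2 in the sham hearts and at 7.99, 8.28, 8.29, 7.62 and 7.90 log2 at 24 h. It fell by 1.13 log2 (adjusted p = 0.0201), and sham replicates 3 and 5 stood above the other sham hearts. Without 1 array there was no call for Me1 (in 6 of 10 fits, adjusted p up to 0.0733 without 24 h replicate 2), Sqstm1 (in 7 of 10 fits, adjusted p up to 0.0891 without sham replicate 3), Ftl1 (in 3 of 10 fits, adjusted p up to 0.0587 without 24 h replicate 5) and Tfrc (in 3 of 10 fits, adjusted p up to 0.0635 without sham replicate 5). In 1 or both atrial fits there was no call for Me1, Sqstm1, Slc40a1, Ftl1 and Tfrc. The iron list had 1 higher and 0 lower with the atrial covariate, and 0 higher and 1 lower without the atrium-rich arrays.

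Metallothioneins, small cysteine-rich proteins that bind zinc and copper and are induced by metals and glucocorticoids through elements in their promoters, were among the largest falls. Their promoters are shown because the matches to the metal response element lie densely in them. The windows run from 250 bases before to 50 after the gene start, RefSeq build GRCr8, minus strand of chromosome 19, and capitals mark TGCACNC or TGCGCNC on either strand, with no overlap between matches.
Mt1, chr19:10832926-10833225: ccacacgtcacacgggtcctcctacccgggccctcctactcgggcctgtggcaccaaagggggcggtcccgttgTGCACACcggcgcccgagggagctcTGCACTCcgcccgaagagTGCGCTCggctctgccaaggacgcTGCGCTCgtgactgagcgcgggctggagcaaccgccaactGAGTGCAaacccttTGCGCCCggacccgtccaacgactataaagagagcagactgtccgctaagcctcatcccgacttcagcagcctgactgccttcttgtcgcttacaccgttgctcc
Mt2A, chr19:10838659-10838958: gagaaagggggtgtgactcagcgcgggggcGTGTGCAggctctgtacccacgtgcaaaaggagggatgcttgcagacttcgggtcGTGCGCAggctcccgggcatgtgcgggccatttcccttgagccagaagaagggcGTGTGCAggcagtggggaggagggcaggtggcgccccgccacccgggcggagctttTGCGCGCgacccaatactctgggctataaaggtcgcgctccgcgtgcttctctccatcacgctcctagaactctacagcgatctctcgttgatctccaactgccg
The first window holds 6 matches and the second 4. Among the 33469 windows of this length that RefSeq gave, 24.2% held at least 1 match and 0.439% at least 4. Mt1 was at 13.06, 14.55, 13.20, 13.25 and 14.17 log2 in the sham hearts and at 11.31, 11.15, 10.47, 10.48 and 11.09 log2 at 24 h. Every 24 h array was below every sham array and the fall was 6.71-fold (difference -2.75 ± 0.47 SE, adjusted p = 0.00307). Mt2A was at 15.10, 16.61, 15.07, 15.38 and 16.22 log2 in the sham hearts and at 13.19, 13.07, 13.52, 12.45 and 13.34 log2 at 24 h, also without overlap, with a 5.91-fold fall (adjusted p = 0.00314). Mtf1, the transcription factor that binds these elements, was at 6.57, 5.80, 5.97, 6.05 and 6.25 log2 in the sham hearts and at 5.47, 5.37, 5.99, 5.55 and 5.27 log2 at 24 h. Both groups lay close to background, 24 h replicate 3 was within the sham range, and it was called lower (adjusted p = 0.0483). The remaining 16 measured metallothionein and zinc transporter genes were not called. The list had a median difference of 0.016 log2, and a promoter window was at hand for 16 of its 19 genes, of which 11 held a match. A call was lost in some fit without 1 array for Mtf1 (in 8 of 10 fits, adjusted p up to 0.127 without 24 h replicate 5). Not called in 1 or both atrial fits was Mtf1.

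Immediate early genes and the phosphatases that switch off MAP kinases lay lower. Of 29 measured genes 4 fell, 0 rose and 25 had a negative difference, with a median of -0.278 log2. Dusp1, a phosphatase of p38, JNK and ERK that glucocorticoids and cyclic AMP induce, was at 15.45, 13.98, 14.73, 14.44 and 14.18 log2 in the sham hearts and at 12.01, 12.25, 12.44, 12.84 and 13.12 log2 at 24 h. The groups did not overlap and the fall was 4.07-fold (difference -2.02 ± 0.29 SE, adjusted p = 0.000655). Its promoter window on chromosome 10, plus strand, GRCr8, is shown because it holds the full cyclic AMP response element TGACGTCA, in capitals, once. That element was found in 1.83% of the 33469 windows and in 3 of 20 windows of this list.
Dusp1, chr10:17184603-17184902: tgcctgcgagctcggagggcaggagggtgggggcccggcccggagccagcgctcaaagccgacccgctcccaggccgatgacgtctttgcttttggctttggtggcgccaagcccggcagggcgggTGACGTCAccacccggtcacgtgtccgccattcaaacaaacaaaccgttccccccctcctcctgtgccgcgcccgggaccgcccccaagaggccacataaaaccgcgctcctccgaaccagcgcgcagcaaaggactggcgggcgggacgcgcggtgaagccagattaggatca
Egr1, a zinc finger factor induced within minutes of stimulation, was at 10.58, 9.06, 11.52, 10.80 and 10.37 log2 in the sham hearts and at 8.37, 7.75, 9.73, 8.59 and 8.53 log2 at 24 h. Sham replicate 2 lay within the range of the 24 h hearts, and the difference was -1.87 ± 0.36 SE (adjusted p = 0.00689). Klf2, a factor of quiescent endothelium, fell by 0.84 log2, and Klf4 was called lower near background. Sgk1, a kinase induced by glucocorticoids and insulin, was at 10.26, 10.37, 10.64, 10.27 and 10.48 log2 in the sham hearts and at 8.26, 9.09, 10.00, 8.43 and 10.16 log2 at 24 h, with 24 h replicates 3 and 5 close to the sham hearts, and was called at adjusted p = 0.0494. Of 21 glucocorticoid-induced genes 4 fell, namely Mt1, Mt2A, Dusp1 and Sgk1, and 0 rose. In this list 8 differences were positive, up to 1.402 log2, 13 were negative and the median was -0.090 log2. Mt1, Mt2A and Dusp1 were also counted in the lists above. With 1 array left out at a time, the test no longer called Klf2 (in 6 of 10 fits, adjusted p up to 0.0984 without 24 h replicate 2) and Sgk1 (in 8 of 10 fits, adjusted p up to 0.12 without 24 h replicate 4). The atrial fits, 1 or both, ended the call of Klf2 and Sgk1. The counts were 0 higher and 5 lower with the atrial covariate, and 0 higher and 3 lower without the atrium-rich arrays.

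Chaperones, which fold proteins, fell in part. Of 24 heat shock genes 5 fell and 0 rose (median -0.112 log2). Hspd1, the mitochondrial chaperonin HSP60, was at 15.43, 15.34, 15.21, 15.51 and 15.39 log2 in the sham hearts and at 15.05, 14.52, 14.64, 14.73 and 14.44 log2 at 24 h. It fell by 0.70 log2 without overlap (adjusted p = 0.00398). Hspe1, its partner HSP10, was at 15.32, 15.37, 15.16, 15.28 and 15.43 log2 in the sham hearts and at 15, 14.72, 14.95, 14.81 and 14.62 log2 at 24 h, without overlap as well, and fell by 0.49 log2 (adjusted p = 0.0223). The pair is transcribed in opposite directions from 1 shared region. Hsph1, a nucleotide exchange factor of HSP70, was at 8.17, 8.20, 8.11, 8.06 and 7.99 log2 in the sham hearts and at 7.14, 7.59, 7.29, 7.78 and 7.51 log2 at 24 h and fell by 0.64 log2 (adjusted p = 0.0123). It also stood lower than at 12 h, with a difference of -0.73 log2 (adjusted p = 0.0149). The promoter windows of Hspe1 and Hsph1 (GRCr8, plus strand) are shown because they hold the heat shock element, made of GAA, TTC and GAA in this order with any 2 bases between neighbours, searched on both strands and marked in capitals. The match occurred in 0.798% of the 33469 windows, and in 4 of the 19 chaperone windows at hand, Hspa8, Hspd1, Hspe1 and Hsph1.
Hspe1, chr9:64084077-64084376: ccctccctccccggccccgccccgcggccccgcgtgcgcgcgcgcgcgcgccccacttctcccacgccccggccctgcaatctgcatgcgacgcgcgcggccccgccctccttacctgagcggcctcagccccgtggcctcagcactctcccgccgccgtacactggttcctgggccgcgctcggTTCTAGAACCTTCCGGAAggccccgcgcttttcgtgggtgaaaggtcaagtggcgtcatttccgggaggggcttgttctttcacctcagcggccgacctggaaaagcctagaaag
Hsph1, chr12:10427118-10427417: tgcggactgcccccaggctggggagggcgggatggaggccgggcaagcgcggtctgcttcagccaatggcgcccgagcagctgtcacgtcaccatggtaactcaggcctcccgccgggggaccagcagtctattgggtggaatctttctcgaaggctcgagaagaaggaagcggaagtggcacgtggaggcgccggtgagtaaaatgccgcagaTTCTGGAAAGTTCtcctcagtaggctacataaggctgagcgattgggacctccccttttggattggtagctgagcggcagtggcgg
In the Hspe1 window 2 matches overlap. Hspa8, chosen after its values were seen because its window holds the element too, was at 18.15, 18.22, 17.86, 18.19 and 18.28 log2 in the sham hearts and at 18.25, 18.22, 18.41, 18.21 and 18.40 log2 at 24 h and was not called (0.16 ± 0.11 SE, adjusted p = 0.506). The co-chaperone Stip1, which hands clients from HSP70 to HSP90, fell by 0.92 log2 and the small heat shock protein Hspb8 by 0.59 log2.

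Hsp90 works with co-chaperones that load kinases, steroid receptors and myosin. Fkbp4, the immunophilin of steroid receptor complexes, was at 11.88, 11.49, 11.92, 11.59 and 12.14 log2 in the sham hearts and at 10.52, 10.16, 9.83, 9.97 and 9.52 log2 at 24 h. Each 24 h heart was below each sham heart, and the fall was 3.49-fold (adjusted p = 3.75e-05). A set of 21 Hsp90 and co-chaperone genes was put together after Fkbp4 had been seen, and in it 5 fell (Fkbp4, Stip1, Hsph1, Cdc37 and Smyd1), 0 rose and the median difference was -0.090 log2. The kinase co-chaperone Cdc37 fell by 0.59 log2, and Smyd1, a muscle methyltransferase needed for sarcomere assembly, by 0.95 log2. Hsp90ab1 itself was at 16.05, 16.02, 15.72, 16 and 16.03 log2 in the sham hearts and at 16.20, 16.25, 16.39, 16.23 and 16.34 log2 at 24 h. Its 24 h arrays were above the sham arrays, but the difference of 0.32 ± 0.11 SE was not called (adjusted p = 0.118). Ddit3, the stress factor CHOP, fell by 1.22 log2, whereas the endoplasmic reticulum chaperone Dnajb9 rose by 0.69 ± 0.17 SE, and these were the 2 called genes of 23 in the unfolded protein response list. For the heat shock list the counts were 0 higher and 3 lower with the atrial covariate, and 0 higher and 3 lower without the atrium-rich arrays. The call was lost without 1 array for Hspe1 (in 3 of 10 fits, adjusted p up to 0.0687 without 24 h replicate 5), Hspb8 (in 7 of 10 fits, adjusted p up to 0.0864 without 24 h replicate 5), Cdc37 (in 4 of 10 fits, adjusted p up to 0.0655 without sham replicate 5), Smyd1 (in 8 of 10 fits, adjusted p up to 0.0965 without 24 h replicate 2) and Dnajb9 (in 5 of 10 fits, adjusted p up to 0.0883 without 24 h replicate 5). At least 1 of the atrial fits did not call Hspe1, Hsph1, Hspb8 and Smyd1.

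Called genes of glucose uptake and glycolysis lay at many steps of the pathway. Of 25 measured genes 9 fell and 1 rose, and the median difference was -0.592 log2. Slc2a4, the insulin-responsive glucose transporter GLUT4, was at 13.97, 13.83, 13.64, 14.19 and 14 log2 in the sham hearts and at 12.69, 12.65, 12.59, 12.67 and 12.44 log2 at 24 h. The groups lay far apart and the difference was -1.32 ± 0.22 SE (adjusted p = 0.00295). Hk2, the hexokinase that traps glucose in the cell, was at 10.62, 10.58, 10.08, 10.84 and 10.60 log2 in the sham hearts and at 8.31, 8.39, 9.11, 8.71 and 8.31 log2 at 24 h. Again no array overlapped, and the fall was 3.94-fold (adjusted p = 0.00256). Further down the pathway the phosphofructokinase Pfkm fell by 0.82 log2, the pyruvate kinase Pkm by 0.79 log2, Pgk1, a kinase that yields ATP, by 0.73 log2 and the mutase Pgam2 by 0.76 log2. The 1 rise was that of Pfkfb3, which makes the activator fructose 2,6-bisphosphate. It was at 5.64, 5.31, 5.43, 5.52 and 5.59 log2 in the sham hearts and at 6.55, 6.96, 6.13, 6.46 and 7.40 log2 at 24 h, low but without overlap, and was called higher than in sham (adjusted p = 0.0181) and than at 12 h (adjusted p = 0.0485). Its sham and 12 h means were under 6 log2, near background, so the size of the change is not given. Gys1, the muscle glycogen synthase, was the 1 called gene of 18 in glycogen metabolism and fell by 0.74 log2. The counts of the glycolysis list were 0 higher and 8 lower with the atrial covariate, and 0 higher and 8 lower without the atrium-rich arrays. Leaving out 1 array could end the call of Pfkfb3 (in 2 of 10 fits, adjusted p up to 0.0575 without 24 h replicate 5) and Gys1 (in 9 of 10 fits, adjusted p up to 0.107 without sham replicate 4). Lost in 1 or both atrial fits were Pfkfb3 and Gys1.

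Entry of pyruvate into mitochondria and the citric acid cycle showed the same direction in its called genes, with 5 of 30 lower and 1 higher (median -0.110 log2). Mpc1, a subunit of the mitochondrial pyruvate carrier, was at 16.56, 16.58, 16.22, 16.63 and 16.40 log2 in the sham hearts and at 15.85, 15.69, 15.50, 15.81 and 15.66 log2 at 24 h. No array overlapped and the difference was -0.78 ± 0.13 SE (adjusted p = 0.00316). Dlat, the acetyltransferase of pyruvate dehydrogenase, fell by 0.73 log2, and Pdp2, the phosphatase that switches the complex on, by 0.55 log2. Pdk1, one of the kinases that switch it off, was at 16.49, 16.32, 15.92, 16.40 and 16.17 log2 in the sham hearts and at 16.62, 16.96, 17.06, 16.65 and 16.88 log2 at 24 h and rose by 0.57 ± 0.15 SE (adjusted p = 0.0424). In the cycle itself Idh3a, a subunit of isocitrate dehydrogenase, fell by 0.48 log2 and Dlst, of oxoglutarate dehydrogenase, by 0.54 log2. Without 1 array there was no call for Pdp2 (in 6 of 10 fits, adjusted p up to 0.093 without 24 h replicate 2), Pdk1 (in 8 of 10 fits, adjusted p up to 0.11 without sham replicate 3), Idh3a (in 3 of 10 fits, adjusted p up to 0.0635 without 24 h replicate 5) and Dlst (in 9 of 10 fits, adjusted p up to 0.118 without 24 h replicate 5). In 1 or both atrial fits there was no call for Pdp2, Pdk1, Idh3a and Dlst. The list's counts were 0 higher and 5 lower with the atrial covariate, and 0 higher and 4 lower without the atrium-rich arrays.

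**Figure D2:**
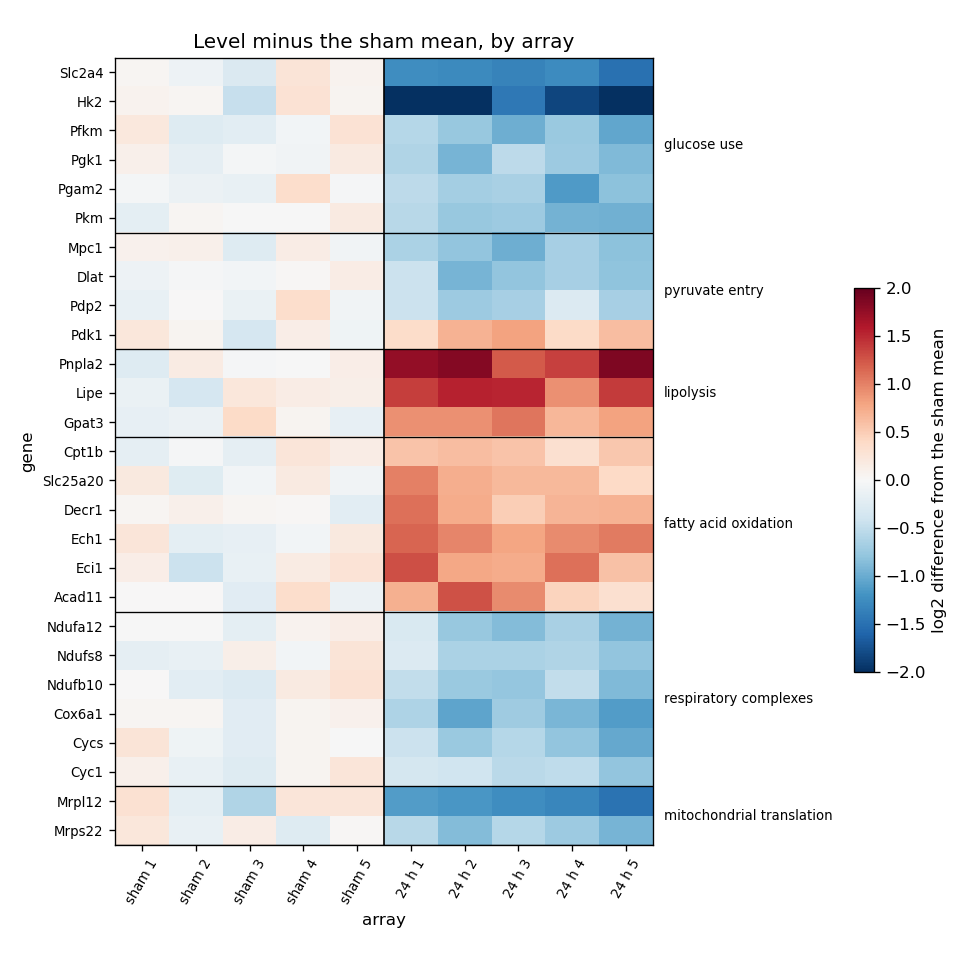
Level in each of the 10 arrays minus the sham mean of the gene (colour, log2, cut at -2 and 2) for genes of glucose use, pyruvate entry, lipolysis, fatty acid oxidation, respiratory complexes and mitochondrial translation; columns are sham replicates 1 to 5 and 24 h replicates 1 to 5. The glucose and respiratory genes drawn are blue at 24 h, as Hk2 (-1.98 log2), and the lipid genes drawn red, as Pnpla2 (1.61 log2). All were picked from called genes, so the colours follow from this choice. Pfkfb3, a glucose gene called higher, and the lipid genes Scd2, Fads2, Acot11 and Acot13, called lower, are not drawn.

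Single genes of fat breakdown and uptake rose. Pnpla2, the lipase ATGL that starts the breakdown of stored triglyceride, was at 13.24, 13.66, 13.47, 13.49 and 13.64 log2 in the sham hearts and at 15.25, 15.33, 14.72, 14.87 and 15.36 log2 at 24 h. All 24 h hearts were above all sham hearts, a 3.04-fold rise (difference 1.61 ± 0.17 SE, adjusted p = 3.75e-05). Lipe, the hormone-sensitive lipase of the next step, was at 7.94, 7.74, 8.30, 8.23 and 8.19 log2 in the sham hearts and at 9.46, 9.62, 9.61, 9 and 9.48 log2 at 24 h and rose 2.56-fold without overlap (adjusted p = 0.00247). Gpat3, which starts the making of glycerolipids, rose by 0.88 ± 0.16 SE, and these were the 3 called of 18 genes of triglyceride storage and lipolysis. Slc27a1, a fatty acid transporter of the plasma membrane, was at 9.84, 8.86, 9.86, 9.78 and 10.27 log2 in the sham hearts and at 11.41, 11.93, 11.32, 11.36 and 11.16 log2 at 24 h, lowest in sham replicate 2. It rose 3.28-fold (adjusted p = 0.00046) and was the 1 called of 15 genes of fatty acid uptake and activation. Scd2, a desaturase that makes monounsaturated fatty acids, was at 9.80, 10.56, 10.50, 10.11 and 9.93 log2 in the sham hearts and at 8.53, 8.25, 7.75, 8.57 and 8.43 log2 at 24 h. It fell 3.67-fold without overlap (adjusted p = 8.24e-05) and also stood lower than at 12 h, with a difference of -1.76 log2 (adjusted p = 0.000981). The desaturase Fads2 fell by 1.46 log2, and it was highest in the atrium-rich sham replicate 3 (9.60 log2). Not called in 1 or both atrial fits was Fads2.

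The thioesterases that cut acyl-CoA into fatty acid and CoA moved both ways. Acot2, in mitochondria, was at 14.51, 14.42, 14.62, 14.42 and 14.83 log2 in the sham hearts and at 16.12, 15.83, 15.82, 15.98 and 15.79 log2 at 24 h. All 24 h arrays were above all sham arrays, a 2.55-fold rise (adjusted p = 1.74e-05). Acot1, its cytosolic neighbour gene, was at 7.46, 7.34, 7.59, 7.34 and 7.64 log2 in the sham hearts and at 8.94, 8.91, 8.82, 8.67 and 8.41 log2 at 24 h and rose 2.42-fold (adjusted p = 2.49e-05). The 2 genes are near copies, so their probe sets may share signal. Acot11 fell 2.84-fold and Acot13 by 0.80 log2, so that 2 of the 9 thioesterases rose and 2 fell. Of 20 peroxisomal lipid genes 3 rose and 0 fell. Hsd17b4, the peroxisomal bifunctional enzyme, was at 13.05, 13.37, 13.09, 13.05 and 13.20 log2 in the sham hearts and at 14.37, 14.12, 14.10, 14.26 and 13.87 log2 at 24 h. It rose by 0.99 ± 0.12 SE (adjusted p = 0.000132), without overlap. A call was lost in some fit without 1 array for Acot13 (in 1 of 10 fits, adjusted p up to 0.0549 without 24 h replicate 5). The atrial fits, 1 or both, ended the call of Acot13.

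Mitochondrial beta-oxidation, in which fatty acids are cut to acetyl-CoA, had 7 of 22 genes called higher and 0 lower, and 20 of the 22 differences were positive (median 0.373 log2). Cpt1b, the muscle carnitine palmitoyltransferase that gates entry of long chains, was at 15.33, 15.49, 15.33, 15.75 and 15.67 log2 in the sham hearts and at 16.08, 16.13, 16.09, 15.84 and 16.06 log2 at 24 h. Sham replicate 4 came close to the lowest 24 h heart, and the difference was 0.53 ± 0.12 SE (adjusted p = 0.0219). Slc25a20, the carnitine-acylcarnitine carrier, rose by 0.69 ± 0.17 SE. Decr1, which prepares unsaturated chains, was at 14.99, 15.05, 14.98, 14.97 and 14.73 log2 in the sham hearts and at 16.05, 15.69, 15.44, 15.63 and 15.64 log2 at 24 h and rose by 0.75 ± 0.19 SE (adjusted p = 0.038). The isomerases Ech1 and Eci1 rose by 0.99 ± 0.23 SE and 0.90 ± 0.21 SE, and the dehydrogenase Acad11 by 0.74 ± 0.17 SE. Most calls of this list were lost in the atrial fits, with 1 higher and 1 lower with the atrial covariate, and 0 higher and 0 lower without the atrium-rich arrays, while the median difference was 0.41 and 0.29 log2 in these fits. With 1 array left out at a time, the test no longer called Cpt1b (in 4 of 10 fits, adjusted p up to 0.0607 without sham replicate 3), Slc25a20 (in 8 of 10 fits, adjusted p up to 0.0861 without sham replicate 5), Decr1 (in 9 of 10 fits, adjusted p up to 0.0959 without sham replicate 5), Ech1 (in 5 of 10 fits, adjusted p up to 0.0606 without sham replicate 3), Eci1 (in 4 of 10 fits, adjusted p up to 0.064 without sham replicate 3) and Acad11 (in 4 of 10 fits, adjusted p up to 0.0645 without 24 h replicate 2). At least 1 of the atrial fits did not call Cpt1b, Slc25a20, Decr1, Ech1, Eci1 and Acad11. The nuclear receptor Ppara itself was at 10.28, 10.77, 10.70, 10.82 and 9.98 log2 in the sham hearts and at 9.30, 9.59, 9.74, 9.73 and 9.57 log2 at 24 h. It fell by 0.92 log2 (adjusted p = 0.0407), and the coactivator Ppargc1b fell by 0.77 log2 (adjusted p = 0.0251). The call was lost without 1 array for Ppara (in 9 of 10 fits, adjusted p up to 0.0969 without sham replicate 4) and Ppargc1b (in 5 of 10 fits, adjusted p up to 0.0692 without sham replicate 5). Lost in 1 or both atrial fits were Ppara and Ppargc1b. Of 25 genes of the PPAR alpha fasting response 4 rose and 2 fell, and of 6 ketone body genes 0 were called by limma, 2 with an unadjusted p under 0.05, with the transporter Slc16a1 at 0.34 ± 0.19 SE (adjusted p = 0.403) although its groups did not overlap.

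Genes for the respiratory chain lay lower by small amounts. Of 32 complex I genes 5 fell, 0 rose and 28 had negative differences (median -0.204 log2). In complexes III to V 3 of 29 fell, 0 rose and 25 were negative (median -0.126 log2). These counts stand beside 2.47% called lower of all named genes and 6.67% called in either direction of those at 6 log2 or more. The mean over the complex I genes overlapped between groups, at 15.151 to 15.530 log2 in sham and 14.999 to 15.341 log2 at 24 h. So did that of complexes III to V, at 16.272 to 16.713 log2 in sham and 16.258 to 16.513 log2 at 24 h. Cox6a1, a subunit of cytochrome c oxidase, was at 16.63, 16.63, 16.37, 16.65 and 16.68 log2 in the sham hearts and at 15.97, 15.53, 15.88, 15.68 and 15.47 log2 at 24 h. It fell by 0.89 log2 without overlap (adjusted p = 0.00229). Ndufa12, a complex I subunit, was at 13.47, 13.48, 13.28, 13.56 and 13.62 log2 in the sham hearts and at 13.18, 12.73, 12.62, 12.83 and 12.54 log2 at 24 h and fell by 0.70 log2 (adjusted p = 0.00747). The complex I subunits Ndufs8, Ndufb10, Ndufb7 and Ndufa6 fell by 0.59, 0.68, 0.67 and 0.55 log2. Cytochrome c (Cycs) fell by 0.71 log2, cytochrome c1 (Cyc1) by 0.52 log2 and the ADP/ATP carrier Slc25a5 by 0.65 log2. Leaving out 1 array could end the call of Ndufb7 (in 6 of 10 fits, adjusted p up to 0.0837 without sham replicate 5), Ndufa6 (in 7 of 10 fits, adjusted p up to 0.0879 without sham replicate 5), Cycs (in 2 of 10 fits, adjusted p up to 0.0589 without 24 h replicate 5) and Cyc1 (in 7 of 10 fits, adjusted p up to 0.103 without 24 h replicate 5). In 1 or both atrial fits there was no call for Ndufs8.

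The machinery that builds these complexes was then looked at as whole families, taken by gene symbol after the respiratory values had been seen. Mitochondrial ribosomal proteins, which translate the mitochondrial genome, were the largest family, and 13 of 69 fell, 0 rose and 58 had negative differences (median -0.308 log2). The share of 13 in 69 stands beside 2.47% called lower of all named genes and 6.67% called in either direction of those at 6 log2 or more. Mrpl12, of the large subunit, was at 11.73, 11.23, 10.82, 11.66 and 11.67 log2 in the sham hearts and at 10.31, 10.26, 10.18, 10.11 and 9.94 log2 at 24 h. Sham replicate 3 was the lowest sham heart, no array overlapped, and the fall was 2.4-fold (difference -1.26 ± 0.16 SE, adjusted p = 0.000239). Mrps22, of the small subunit, was at 11.68, 11.30, 11.60, 11.20 and 11.48 log2 in the sham hearts and at 10.90, 10.59, 10.88, 10.73 and 10.53 log2 at 24 h and fell by 0.73 log2 (adjusted p = 0.00468). Of 21 translocases that import proteins 4 fell and 0 rose, with Timm44 at -0.69 ± 0.14 SE and Tomm40 at -0.79 ± 0.19 SE. Both called complex I assembly factors of 6 fell, Ndufaf7 by 0.70 log2 and Ndufaf5 by 0.60 log2, and all 6 differences were negative. Coq5, of coenzyme Q synthesis, fell by 0.92 log2, one of 3 lower among 11 genes named Coq. By contrast 0 of the 30 cytosolic ribosomal proteins were called by limma, 2 with an unadjusted p under 0.05 (median 0.104 log2), and the difference between the families was not tested. The groups did not overlap for 2 of the 30 cytosolic genes. Rps6 was at 0.30 ± 0.11 SE (adjusted p = 0.168), and Rpl3 lay lower at 24 h and was not called either. For the mitochondrial ribosomal proteins the counts were 0 higher and 10 lower with the atrial covariate, and 0 higher and 14 lower without the atrium-rich arrays. Without 1 array there was no call for Tomm40 (in 6 of 10 fits, adjusted p up to 0.0835 without 24 h replicate 2) and Ndufaf5 (in 1 of 10 fits, adjusted p up to 0.0547 without 24 h replicate 5).

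**Figure D3:**
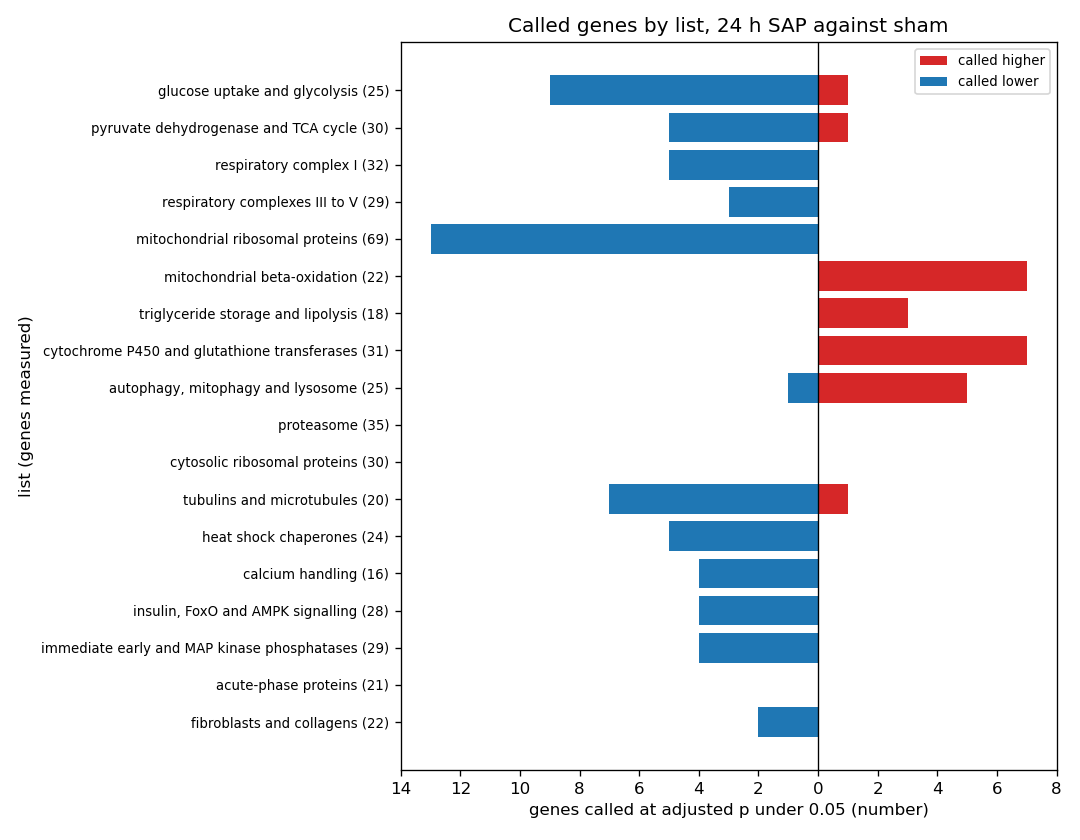
Number of measured genes called higher (red, right) and lower (blue, left) at 24 h for selected lists and families, with the number measured beside each name. Glucose use (9 lower, 1 higher), mitochondrial ribosomal proteins (13 lower) and beta-oxidation (7 higher) are among the longest bars.

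Kinases that report on insulin and energy fell in 4 of 28 genes, and 0 rose (median -0.167 log2). Prkab1, the beta subunit of the energy sensor AMPK, was at 8.97, 8.37, 8.86, 8.69 and 8.58 log2 in the sham hearts and at 7.83, 7.58, 7.20, 7.57 and 7.84 log2 at 24 h. No array overlapped and the fall was 2.13-fold (adjusted p = 0.0013). Akt1 and Akt2, the kinases of insulin signalling, fell by 0.67 and 0.65 log2, and Mtor, the growth kinase, by 0.50 log2. The counts were 0 higher and 1 lower with the atrial covariate, and 0 higher and 2 lower without the atrium-rich arrays. A call was lost in some fit without 1 array for Akt1 (in 2 of 10 fits, adjusted p up to 0.0651 without 24 h replicate 2) and Mtor (in 8 of 10 fits, adjusted p up to 0.124 without 24 h replicate 5). Not called in 1 or both atrial fits were Akt1, Akt2 and Mtor. Energy storage genes moved both ways. Ckb, the brain-type creatine kinase, was at 10.24, 10.44, 10.57, 10.26 and 10.36 log2 in the sham hearts and at 8.24, 9.23, 9.14, 8.39 and 8.44 log2 at 24 h and fell 3.22-fold (adjusted p = 0.000552). Gamt, which makes creatine, fell by 1.12 log2 and the adenosine kinase Adk by 0.49 log2. The AMP deaminases rose. Ampd1, the muscle form, was at 4.97, 4.93, 4.63, 4.59 and 4.54 log2 in the sham hearts and at 5.62, 7.40, 5.64, 6.62 and 6.28 log2 at 24 h. It climbed from near background, highest in 24 h replicate 2 (adjusted p = 0.00233), and Ampd3 rose by 1.26 ± 0.28 SE. With 1 array left out at a time, the test no longer called Adk (in 8 of 10 fits, adjusted p up to 0.0886 without 24 h replicate 5) and Ampd3 (in 4 of 10 fits, adjusted p up to 0.0607 without 24 h replicate 5). The atrial fits, 1 or both, ended the call of Adk and Ampd3.

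Autophagy genes were among the rises and proteasome genes were not. Bnip3, the receptor that marks mitochondria for removal, was at 14.79, 15.28, 13.77, 15.12 and 14.64 log2 in the sham hearts and at 16.34, 16.72, 17.18, 16.63 and 16.87 log2 at 24 h. Sham replicate 3 was the lowest of the 10 hearts, no array overlapped, and the rise was 4.08-fold (adjusted p = 0.00121). Map1lc3b, the LC3 protein of the autophagosome membrane, was at 14.76, 14.71, 14.76, 14.98 and 14.65 log2 in the sham hearts and at 15.39, 15.53, 15.68, 15.44 and 15.88 log2 at 24 h and rose by 0.81 ± 0.15 SE (adjusted p = 0.00428). Of 25 autophagy and lysosome genes 5 rose and 1 fell (median 0.094 log2). The lysosomal protease Ctsl rose by 0.96 ± 0.22 SE and Gabarapl1, of the LC3 family, by 1.13 ± 0.27 SE, while Wipi1, which helps form the autophagosome, fell by 0.51 log2. Among 19 genes of muscle wasting and ubiquitin ligases 3 rose and 0 fell. Asb18, an ankyrin repeat protein with a SOCS box, was at 7.59, 9.04, 7.91, 8.43 and 7.80 log2 in the sham hearts and at 10.50, 11.60, 11.28, 11.56 and 11.37 log2 at 24 h. Its 8.62-fold rise was without overlap (adjusted p = 0.00046). Fbxo30 rose by 0.70 ± 0.16 SE and the muscle ring finger protein Trim54 by 0.78 ± 0.18 SE. Of 35 proteasome genes 0 were called by limma, 4 had an unadjusted p under 0.05 and the median was 0.024 log2. Npm1, a nucleolar ribosome assembly factor, and the helicase Eif4a2 rose by 0.77 ± 0.13 SE and 0.98 ± 0.17 SE, the 2 called of 22 translation genes. For the autophagy list the counts were 3 higher and 1 lower with the atrial covariate, and 5 higher and 0 lower without the atrium-rich arrays. The call was lost without 1 array for Ctsl (in 5 of 10 fits, adjusted p up to 0.0661 without 24 h replicate 5), Gabarapl1 (in 6 of 10 fits, adjusted p up to 0.0813 without 24 h replicate 5), Wipi1 (in 8 of 10 fits, adjusted p up to 0.0931 without sham replicate 3), Fbxo30 (in 4 of 10 fits, adjusted p up to 0.0665 without sham replicate 5) and Trim54 (in 3 of 10 fits, adjusted p up to 0.0764 without 24 h replicate 5). At least 1 of the atrial fits did not call Gabarapl1, Wipi1 and Trim54.

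Tubulins, the subunits of microtubules, were among the falls. Of 20 tubulin and microtubule genes 7 fell and 1 rose, and the median was -0.420 log2. Tuba8, an alpha tubulin of striated muscle, was at 12.62, 12.12, 12.20, 13.20 and 12.64 log2 in the sham hearts and at 11.38, 10.79, 11.30, 11.33 and 10.88 log2 at 24 h. The groups were apart and the fall was 2.68-fold (adjusted p = 0.000378). Tuba4a was at 16.09, 15.21, 15.53, 16.20 and 15.90 log2 in the sham hearts and at 14.62, 12.64, 13.89, 14.19 and 13.28 log2 at 24 h, lowest in 24 h replicate 2, and fell 4.18-fold (adjusted p = 0.00141). Tubb5, Tubg1 and Tuba1a fell by 0.84, 0.77 and 0.82 log2, and Ttl, the ligase that restores tyrosine to alpha tubulin, by 0.72 log2. The rise was that of Stmn1, a protein that destabilises microtubules (0.67 ± 0.18 SE, adjusted p = 0.0435), which was named with its values known. Tubulin genes are alike in sequence, so probe sets may share signal. The counts were 0 higher and 5 lower with the atrial covariate, and 1 higher and 5 lower without the atrium-rich arrays. Leaving out 1 array could end the call of Tuba1a (in 6 of 10 fits, adjusted p up to 0.0826 without sham replicate 3) and Stmn1 (in 10 of 10 fits, adjusted p up to 0.11 without sham replicate 3). Lost in 1 or both atrial fits were Tuba1a and Stmn1.

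Contraction genes changed little, but calcium handling fell in part. Of 20 sarcomere genes 1 was called. That was Myom2, an M-band protein, at 16.71, 16.84, 16.50, 16.86 and 16.73 log2 in the sham hearts and at 17.20, 17.44, 17.24, 17.41 and 17.40 log2 at 24 h, which rose by 0.61 ± 0.12 SE (adjusted p = 0.00689). Of 16 calcium handling genes 4 fell and 0 rose (median -0.210 log2). Jph2, junctophilin, which holds the T-tubule beside the calcium store, was at 12.15, 12.13, 12.51, 12.43 and 12.41 log2 in the sham hearts and at 11.64, 10.95, 11.40, 11.01 and 11.36 log2 at 24 h. No array overlapped and the difference was -1.05 ± 0.14 SE (adjusted p = 0.00046). Casq2 and Hrc, calcium-binding proteins inside the store, fell by 0.67 and 0.52 log2, and the sodium-calcium exchanger Slc8a1 by 0.56 log2. The ryanodine receptor Ryr2 lay at -0.25 ± 0.17 SE (adjusted p = 0.495), although its groups did not overlap. Of 16 ion channel genes 3 fell and 0 rose, namely the potassium channel Kcnq1 (-0.90 ± 0.19 SE), the pacemaker channel Hcn2 (-1.10 ± 0.27 SE) and the sodium pump subunit Atp1b1 (-0.49 ± 0.10 SE). Prkaca, the catalytic subunit of protein kinase A that carries the adrenergic signal, was at 14.76, 14.57, 14.57, 14.69 and 14.88 log2 in the sham hearts and at 14.24, 14.09, 14.11, 14.04 and 14.11 log2 at 24 h and fell by 0.58 log2 (adjusted p = 0.0104). Its regulatory subunit Prkar2a fell by 0.49 log2. Of 14 genes of cardiomyocyte stress 0 were called by limma, 2 with an unadjusted p under 0.05, with Myh7 at 0.18 ± 0.12 SE and Ankrd1 at 0.17 ± 0.13 SE. The counts of the calcium list were 0 higher and 1 lower with the atrial covariate, and 0 higher and 2 lower without the atrium-rich arrays. Without 1 array there was no call for Casq2 (in 6 of 10 fits, adjusted p up to 0.077 without 24 h replicate 2), Hrc (in 7 of 10 fits, adjusted p up to 0.0882 without sham replicate 5), Slc8a1 (in 7 of 10 fits, adjusted p up to 0.076 without 24 h replicate 5), Hcn2 (in 8 of 10 fits, adjusted p up to 0.0865 without sham replicate 5) and Prkar2a (in 8 of 10 fits, adjusted p up to 0.102 without sham replicate 5). In 1 or both atrial fits there was no call for Casq2, Hrc, Slc8a1, Kcnq1 and Atp1b1.

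Inflammatory genes were not called as a group at 24 h. Of 21 acute-phase genes 0 were called by limma, and 4 had an unadjusted p under 0.05. No call was made either for 31 cytokines and NF-kB targets, of which 7 had such a p, or for 19 genes of IL-6 signalling, of which 5 had. The share of all genes with such a p is not given here. Near background were 11 of the acute-phase genes, 16 of the cytokines and NF-kB targets and 7 of the IL-6 genes. A change in these could have been missed. The 24 h hearts were unequal, as values chosen after they were seen show. S100a9, a subunit of calprotectin, was at 4.99, 5.59, 4.75, 4.44 and 5.30 log2 in the sham hearts and at 7.61, 6.14, 9.19, 5.25 and 6.44 log2 at 24 h. Serpina3n, a protease inhibitor of the acute phase, was at 7.14, 4.64, 4.57, 7.25 and 6.59 log2 in the sham hearts and at 6, 7.10, 11.63, 8.26 and 7.44 log2 at 24 h. Fgg, the fibrinogen gamma chain, was at 5.21, 6.09, 5.42, 6.09 and 4.63 log2 in the sham hearts and at 5.92, 6.20, 9, 5.89 and 6.76 log2 at 24 h. In all 3 genes, and in S100a8, Lcn2 and Orm1 drawn with them, 24 h replicate 3 was the highest of the 10 hearts, and for S100a9 and Fgg 24 h replicate 4 lay within the sham range. With sham means near background for S100a9 and Fgg, the differences were 1.91 ± 0.56 SE, 2.05 ± 1.20 SE and 1.27 ± 0.50 SE (adjusted p = 0.0705, 0.426 and 0.189). Without 24 h replicate 3 the differences were 1.35, 1.16 and 0.70 log2. Of 15 neutrophil markers 12 were near background. Mmp8, neutrophil collagenase, was called higher near background. The summed level of these markers was 9.19 to 9.88 log2 in sham and 9.18 to 11.82 log2 at 24 h. All 15 differences were positive, with a median of 0.166 log2. The mean over the 15 was 4.346 to 4.536 log2 in sham and 4.541 to 5.445 log2 at 24 h, so that the groups lay next to each other without overlap.

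**Figure D4:**
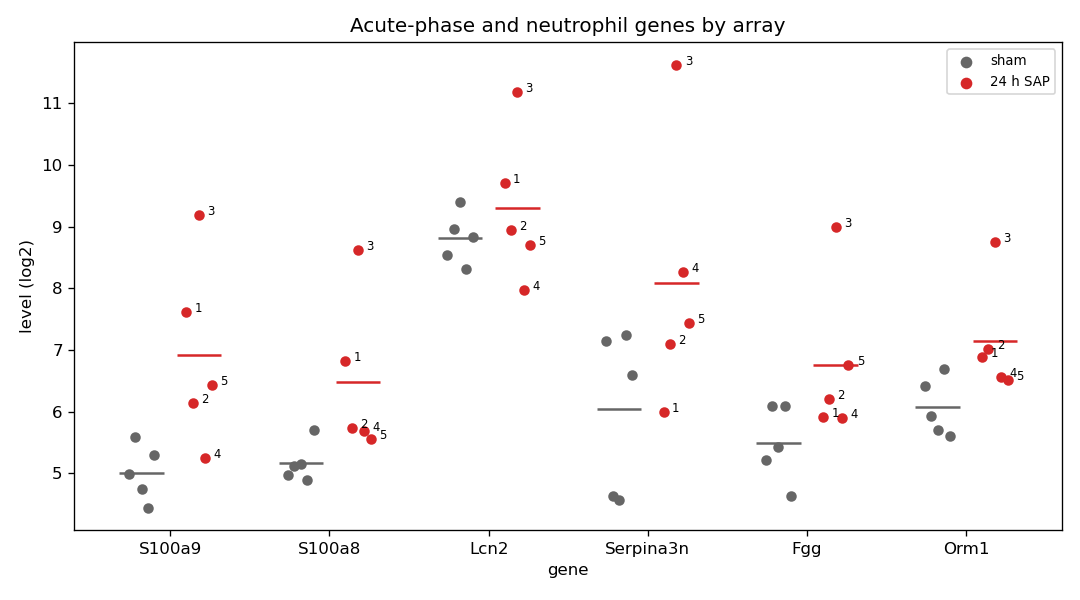
Levels (vertical axis, log2) of 6 acute-phase and neutrophil genes in the 5 sham (grey) and 5 24 h (red) arrays, 1 point per array with the replicate number beside the 24 h points; short bars are group means. Replicate 3 at 24 h is the highest point for each gene, as for S100a9 at 9.19 log2.

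Immune receptor and complement genes gave single calls. Ncf1, a subunit of the phagocyte NADPH oxidase, was at 10.83, 9.25, 10.96, 10.83 and 11.23 log2 in the sham hearts and at 8.55, 8.97, 7.97, 8.83 and 8.49 log2 at 24 h. The 24 h hearts were all lower, sham replicate 2 came closest to them, and the fall was 4.16-fold (adjusted p = 0.000442). Fcer2, the low-affinity IgE receptor of B cells, was at 7.81, 5.35, 7.95, 7.26 and 7.67 log2 in the sham hearts and at 4.80, 4.74, 4.32, 4.42 and 4.67 log2 at 24 h. It was called lower (adjusted p = 0.000434), again with sham replicate 2 low. Its 24 h mean was under 6 log2, near background, so no fold is given. Fcer2 was the 1 call among 10 genes of B and plasma cells, of which 8 were near background. In that list 7 differences were positive and 3 negative, with a median of 0.050 log2. The other 23 of 24 macrophage and monocyte genes were not called, and the summed level of all 24 was 14.92 to 15.26 log2 in sham and 15.12 to 15.60 log2 at 24 h. In a bulk sample fewer cells of a type and less RNA per cell cannot be told apart. Of 19 T and NK cell genes 0 were called by limma, 0 with an unadjusted p under 0.05, and 12 were near background. C1s, the serine protease of the classical complement pathway, was at 11.48, 11.97, 11.65, 11.61 and 11.43 log2 in the sham hearts and at 12.95, 12.27, 12.83, 12.55 and 12.57 log2 at 24 h and rose by 1.01 ± 0.21 SE (adjusted p = 0.0106). Masp1, of the lectin pathway, rose by 1.13 ± 0.30 SE, and these were 2 called of 15 complement genes. Ccl6, a chemokine of macrophages, was at 10.39, 10.53, 10.42, 10.23 and 10.37 log2 in the sham hearts and at 11.89, 11.96, 11.80, 11.76 and 11.50 log2 at 24 h. It rose 2.63-fold without overlap (adjusted p = 0.00331). Of 32 interferon response genes 25 had negative differences, and the median was -0.249 log2. Ifitm1 rose by 0.71 ± 0.18 SE, while standing lower than at 12 h (-1.39 log2, adjusted p = 0.00171), and Irf9 fell by 0.97 log2. Irf7, the interferon amplifier, was at 8.56, 9.97, 6.97, 8.06 and 9.01 log2 in the sham hearts and at 6.72, 6.54, 7.32, 8.11 and 6.69 log2 at 24 h, with sham replicate 2 and 24 h replicate 4 the highest of their groups, and was not called (adjusted p = 0.0818). A call was lost in some fit without 1 array for Masp1 (in 9 of 10 fits, adjusted p up to 0.113 without 24 h replicate 2), Ifitm1 (in 7 of 10 fits, adjusted p up to 0.0969 without sham replicate 4) and Irf9 (in 7 of 10 fits, adjusted p up to 0.109 without 24 h replicate 2). Not called in 1 or both atrial fits were Ifitm1 and Irf9.

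Vessel and clotting genes changed one by one. Plat, the tissue plasminogen activator that dissolves clots, was at 12.96, 13.45, 13.28, 12.84 and 13.13 log2 in the sham hearts and at 13.50, 13.87, 14.22, 13.56 and 13.94 log2 at 24 h and rose by 0.69 ± 0.16 SE (adjusted p = 0.0253). F3, tissue factor, which starts clotting, fell by 0.84 log2 and the prostacyclin synthase Ptgis by 0.87 log2. These, with the near-background Apln, were 1 higher and 3 lower of 26 genes. The receptor Ptgfr, for prostaglandin F2 alpha, was at 12.10, 11.48, 11.06, 10.82 and 11.64 log2 in the sham hearts and at 12.75, 13.03, 12.67, 12.93 and 13.15 log2 at 24 h and rose 2.8-fold (adjusted p = 0.0012). Vegfb fell by 0.51 log2. The membrane-type metalloproteinase Mmp15 fell 2.54-fold and the protease Adamts9 by 0.75 log2. The summed level of 20 endothelial genes was 16.84 to 17.28 log2 in sham and 17.35 to 17.77 log2 at 24 h, a sum led by Fabp4, and 1 member, Apln, was called. The mean over the 20 genes overlapped, at 9.159 to 9.691 log2 in sham and 9.322 to 9.617 log2 at 24 h. With 1 array left out at a time, the test no longer called Plat (in 6 of 10 fits, adjusted p up to 0.0687 without 24 h replicate 5), F3 (in 9 of 10 fits, adjusted p up to 0.114 without sham replicate 1), Ptgis (in 8 of 10 fits, adjusted p up to 0.101 without sham replicate 3), Vegfb (in 9 of 10 fits, adjusted p up to 0.106 without sham replicate 4) and Adamts9 (in 9 of 10 fits, adjusted p up to 0.113 without sham replicate 4). The atrial fits, 1 or both, ended the call of F3, Ptgis, Mmp15 and Adamts9.

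Matrix genes gave few calls, and both called genes were highest in the atrium-rich sham arrays. Bgn, the proteoglycan biglycan, was at 11.32, 12.17, 12.70, 11.86 and 11.75 log2 in the sham hearts and at 10.58, 10.30, 9.79, 10.04 and 10.50 log2 at 24 h. Sham replicates 2 and 3 were the highest of the 10 hearts, the groups did not overlap, and the fall was 3.29-fold (adjusted p = 0.018). Col1a2, a chain of type I collagen, was at 11.64, 12.38, 12.69, 11.65 and 11.94 log2 in the sham hearts and at 11.13, 10.72, 11, 10.83 and 11.09 log2 at 24 h and fell by 1.11 log2 (adjusted p = 0.0379), with the same 2 sham hearts highest. Of 22 fibroblast and collagen genes 2 fell, 0 rose and 18 were negative (median -0.606 log2), and the counts were 1 higher and 0 lower with the atrial covariate, and 0 higher and 2 lower without the atrium-rich arrays. The median was -0.24 log2 with the covariate and -0.35 log2 without those arrays. The mean over the 22 genes did not overlap, at 10.456 to 11.512 log2 in sham and 10.038 to 10.381 log2 at 24 h. It was highest in sham replicates 2 and 3. For 7 of the 22 genes the groups did not overlap, beside 6.66% of all named genes. Serpinf1, a secreted inhibitor of vessel growth, fell 3.51-fold and Islr, a marker of mesenchymal cells, 2.81-fold. Adipoq, the fat cell hormone adiponectin, chosen after its values were seen, was at 7.52, 8.75, 11.14, 5.13 and 6.11 log2 in the sham hearts and at 4.17, 4.51, 4.25, 5.25 and 4.67 log2 at 24 h and was not called (adjusted p = 0.126). Sham replicate 3 was the highest of the 10 hearts and 24 h replicates 1, 2, 3 and 5 were lower than any sham heart. The summed level of 13 adipocyte genes was 16.99 to 17.51 log2 in sham and 17.60 to 17.98 log2 at 24 h, led by Fabp4 and Cidea, and Lipe was its 1 call. The mean over the 13 genes overlapped, at 6.784 to 7.969 log2 in sham and 7.022 to 7.152 log2 at 24 h. Of the 13 genes 7 were near background. The call was lost without 1 array for Bgn (in 1 of 10 fits, adjusted p up to 0.0579 without sham replicate 3), Col1a2 (in 8 of 10 fits, adjusted p up to 0.104 without sham replicate 3) and Serpinf1 (in 8 of 10 fits, adjusted p up to 0.102 without sham replicate 3). At least 1 of the atrial fits did not call Bgn, Col1a2, Serpinf1 and Islr.

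**Figure D5:**
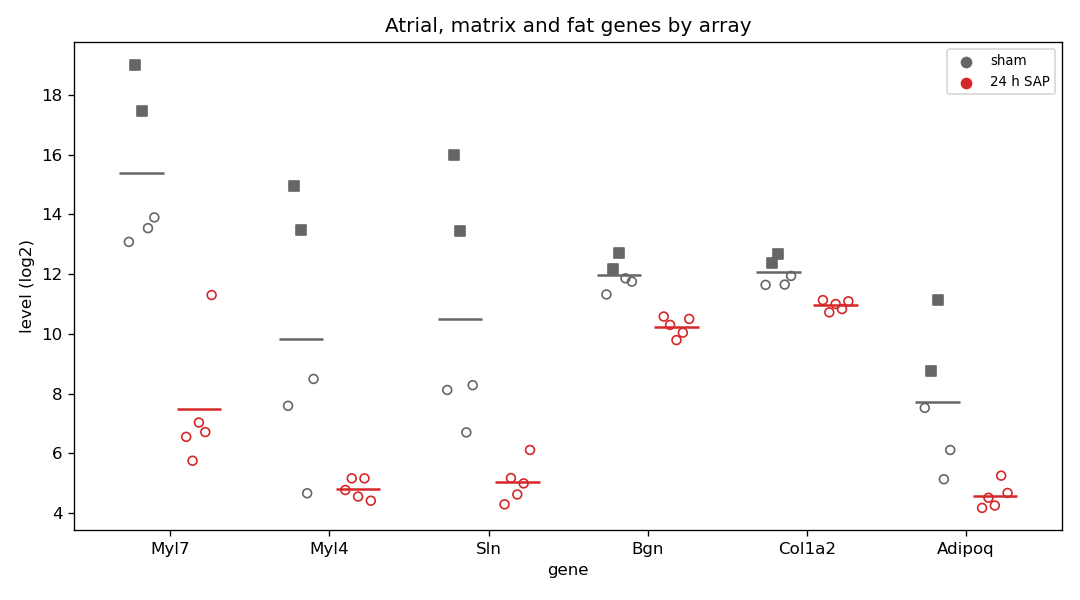
Levels (vertical axis, log2) of 3 atrial genes, 2 matrix genes and Adipoq in the 5 sham (grey) and 5 24 h (red) arrays, 1 point per array; sham replicates 2 and 3 are drawn as filled squares. For Myl4 the 2 squares stand at 14.96 and 13.49 log2, above every other point.

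Among the other leading genes Bex1, a small protein first known from brain, was at 8.50, 10.64, 7.90, 8.53 and 9.30 log2 in the sham hearts and at 10.70, 12.57, 12.66, 12.85 and 12.21 log2 at 24 h. The groups did not overlap, sham replicate 2 came close to 24 h replicate 1, and the rise was 9.34-fold (adjusted p = 0.00981). Cadps, a protein of vesicle release, rose 3.26-fold, and both are members of the list of nerve genes, of which 13 of 16 were near background. Pbld1 was at 8.59, 9.10, 7.92, 8.34 and 8.07 log2 in the sham hearts and at 10.64, 10.74, 10.96, 10.66 and 10.83 log2 at 24 h and rose 5.14-fold without overlap (adjusted p = 0.000382). Slc41a3, a magnesium transporter, was at 8.47, 9.11, 8.50, 9.34 and 9.13 log2 in the sham hearts and at 10.10, 11.36, 11.75, 10.41 and 12.02 log2 at 24 h and rose 4.65-fold (adjusted p = 0.00124). Tmem71, Lingo4 and the death ligand Tnfsf10 rose 3.27-fold, 2.74-fold and 2.64-fold. Of the falls Tsc22d4, a leucine zipper factor, was at 11.81, 11.59, 12.44, 12.12 and 12.08 log2 in the sham hearts and at 10.83, 10.13, 9.66, 9.82 and 9.64 log2 at 24 h and fell 3.98-fold without overlap (adjusted p = 0.000165). Doc2g fell 4.41-fold, Oxnad1 2.86-fold, Sema3c, a secreted guidance protein, 2.92-fold and the smooth muscle light chain Myl9 2.85-fold. Slc38a3, a glutamine transporter, was at 13.22, 11.99, 12.46, 13.26 and 13.18 log2 in the sham hearts and at 11.54, 11.67, 11.56, 10.75 and 11.78 log2 at 24 h. It fell 2.57-fold (adjusted p = 0.00747) and stood above its 12 h level by 1.65 log2 (adjusted p = 0.00537). Rbm3 and Cirbp, RNA-binding proteins induced by mild cold, were named with their values known, and rose by 1.08 ± 0.22 SE and 0.85 ± 0.15 SE (adjusted p = 0.0104 and 0.0047). Body temperature is not given in the labels. Lost in 1 or both atrial fits were Myl9 and Rbm3.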

How the data were processed

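Hearts of 15 rats were measured on 1 array each, 5 for sham surgery, 5 at 12 h and 5 at 24 h of SAP. Per the submitters' processing notes the arrays were processed with Affymetrix Expression Console, with no version stated. The deposited values are log2 signals whose table is named for RMA, a method that corrects background, normalizes quantiles and summarises the probes of a gene; that they are log2 RMA values rests on this name and on their range, 2.51 to 19.83. A second table held the same values, and there are no other columns.

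Groups came from the sample labels. With limma 3.58.1 in R 4.3.3 group means were fitted over all 15 arrays, which share 1 estimate of the spread, and 24 h was contrasted with sham and, for genes named for 24 h, with 12 h. P-values were adjusted by the Benjamini-Hochberg method over 23188 probe sets and called under 0.05. Of these 15049 had 1 gene symbol, 0 several and 8139 none; for 15037 genes where a gene had several probe sets, the one with the highest mean level was used. Symbols came from the platform annotation by gene identifier. Precision is limited by the number of arrays. The fit was tested on simulated data.

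Members of 69 gene lists, 1250 measured genes, were described by counts of calls and the median difference, with no set test. The members and lists were chosen with earlier results of these data known. Genes named are the 20 largest rises and 20 largest falls among called genes without overlap. Further genes were taken from up to 6 called members per list by adjusted p. For lists with no call they were taken from up to 3 members by mean level and any without overlap. Not all of these are named. Without overlap in such lists but given no value were Cxcl12, Psmd1, Psmd8, Rpl3, Hdc and Cyp1a2, with Hdc and Cyp1a2 near background. Other genes, Myl4, Sln and Irf7 among them, were chosen after their values were seen, as were the whole families. A summed level is the log2 of the sum of a list's unlogged values. Promoters are from RefSeq, build GRCr8. Same-numbered arrays of sham and 24 h were checked for pairing by the correlation of their deviations from the group means. It was 0.105, -0.031, 0.023, -0.062 and -0.046 for numbers 1 to 5. Other spread between arrays enters these deviations, so low values cannot exclude that same-numbered arrays share a day or litter. The main fit treated the arrays as unpaired. Alternatives were median centring, repeated quantile normalization, array weights, other empirical Bayes settings, filters on low values, other thresholds, a replicate block, an atrial covariate, and fits without single arrays, the atrium-rich arrays or the 12 h arrays.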

Additional observations from a re-analysis of the deposited data

Results flagged for a closer look

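In each group of 5 arrays the gap of the highest or lowest array to its neighbour was compared with the whole range. Of 330 such groups, 2 for each gene named with a value, 20 had a gap above the critical share of 0.71, and chance alone gives about 1 in 20. Sham replicate 3 was the array concerned in 7 of them. It was the lowest sham heart for Acot13 (13.63 log2), Cox6a1 (16.37 log2), Hsp90ab1 (15.72 log2), Masp1 (12.37 log2), Myl3 (19.02 log2) and Trim54 (14.33 log2), and the highest for Ptgis (7.74 log2). It was also 1 of the 2 atrium-rich sham arrays, and the part of atrial tissue in these values was not tested. Sham replicate 2, the other one, was lowest for Fcer2 (5.35 log2) and Ncf1 (9.25 log2), which encode immune proteins, sham replicate 4 highest for Pgam2 (15.21 log2) and sham replicate 5 lowest for Decr1 (14.73 log2).

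Among the 24 h hearts replicate 4 stood low for Cpt1b (15.84 log2), Lipe (9 log2) and Slc38a3 (10.75 log2) and high for Ptgis (6.49 log2). Replicate 5 was high for Myl7 (11.30 log2), the atrial light chain, and for Myh7 (18.90 log2). Replicate 3 was high for Fgg (9 log2), replicate 2 low for Myl3 (19.29 log2) and replicate 1 low for Adamts9 (7.25 log2).

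Of the genes named with a value 6 differed between 24 h and 12 h in the limma contrast. Lower at 24 h were Scd2 (-1.76 log2), Ifitm1 (-1.39 log2), Mgst1 (-1.05 log2) and Hsph1 (-0.73 log2). Higher at 24 h were Slc38a3 (1.65 log2) and Pfkfb3 (1.18 log2, with its 12 h mean near background, which limits this size). Of these, Scd2 and Hsph1 lay below sham at 24 h while Mgst1 and Ifitm1 lay above sham, so that the first pair was farther from sham than at 12 h and the second nearer.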

How the results depend on the processing

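Against the 782 calls over all probe sets (286 higher, 496 lower), array weights gave 1263 (510 and 753) and a fit of only the 24 h and sham arrays 1230 (497 higher and 733 lower). The atrial covariate gave 503 (177 and 326) and a fit without the atrium-rich arrays 500 (146 higher and 354 lower). An adjusted p under 0.01 left 255 calls, and at least a 2-fold change left 183. Leaving out 1 array at a time gave 420 to 697 calls, 160 to 250 higher and 257 to 447 lower, fewest in total without 24 h replicate 5. Of 1250 listed genes 140 were called, and 81 to 122 without 1 array. The 18 genes that also differed from 12 h became 8 with the atrial covariate, 9 without the atrium-rich arrays and 9 to 18 without 1 array, in fits chosen after seeing the data. The cause of these shifts was not tested. With median centring, repeated quantile normalization, trend and robust settings and either filter on low values, the total stayed within 1.5 times 782. None of the 150 called genes named with a value changed direction under any alternative tried, and 77 of them were called under every one. For genes not called, changes of direction were not counted. The main fit treated same-numbered arrays as unpaired. With the number as a replicate block 657 probe sets were called, 593 of them among the 782, 118 listed genes were called, and 17 genes differed from 12 h. By the correlation of the arrays' deviations, numbers 1 and 3 matched best with themselves and the other 3 did not. Differences near background are limited by the signal.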
